A study of Mus musculus with 8 samples.

Results

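The genes described here are those of the T helper 1 (Th1) programme and its cytokine receptors: Ifng, Tbx21, Eomes, Hlx, Il12rb1, Il12rb2, Il27ra, Ifngr1 and Ifngr2. A region was counted as a member when the nearest RefSeq protein-coding gene of the mouse assembly, within 50 kb of the gene's span, was 1 of these 9. The rule found 52 of the 57199 peaks of the table, 24 inside a gene and 28 outside, and at least 1 for each gene. The assay was ATAC-seq, where a transposase cuts and tags open chromatin, and the cells were splenic regulatory T (Treg) cells of mice made chimeric with mixed bone marrow. All libraries came from CD45.2-positive, CD45.1-negative, CD4-positive cells carrying a Foxp3-driven yellow fluorescent protein. The donor marrow was wild type (WT, 4 libraries) or Foxp3Cre Flcn fl/fl, here called Flcn KO (4 libraries). In the second group the Cre is driven by Foxp3, so deletion is directed to Foxp3-expressing cells. The labels call the libraries biological replicates and give no age, and whether the WT donors also carried the Cre is not stated there. The labels name no drug or stimulus for either group. The question is whether loss of Flcn, which encodes the lysosomal protein folliculin, altered accessible chromatin at these genes.

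Th1 cells are the helper lineage that makes interferon-gamma against intracellular microbes. Interleukin-12 binds a receptor of the Il12rb1 and Il12rb2 chains and signals through STAT4, interleukin-27 binds Il27ra, and both promote T-bet, the product of Tbx21, which opens the Ifng locus. Interferon-gamma then acts through Ifngr1 and Ifngr2. Treg cells can take up parts of this programme during type 1 inflammation, with T-bet and CXCR3, while Foxp3 normally keeps Ifng low.

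The reference tables held a start site and promoter for 7 of the 9 genes, all but Il12rb1 and Il27ra. The bases directly upstream of the start are shown for 4 of them, because the peaks at their starts set apart the genes with an open start from those without: Ifngr1 has a strong peak there, Il12rb2 a moderate one, Tbx21 a faint one and Ifng none. The sequences are RefSeq's, of GRCm38.p6, 5′ to 3′ on the strand of the gene, and end at the base before the first annotated start. For Il12rb2, distances and the motif search below use another RefSeq start instead, at 67376188, inside the gene's span. Capitals mark TTCNNNGAA, the palindromic motif of STAT factors.
Ifngr1, chr10:19591699-19591948, plus strand: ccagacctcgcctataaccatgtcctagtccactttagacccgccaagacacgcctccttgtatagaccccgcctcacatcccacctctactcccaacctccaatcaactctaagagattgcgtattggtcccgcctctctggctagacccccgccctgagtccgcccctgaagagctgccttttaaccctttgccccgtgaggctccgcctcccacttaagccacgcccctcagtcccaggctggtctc
Il12rb2, chr6:67376294-67376438, minus strand: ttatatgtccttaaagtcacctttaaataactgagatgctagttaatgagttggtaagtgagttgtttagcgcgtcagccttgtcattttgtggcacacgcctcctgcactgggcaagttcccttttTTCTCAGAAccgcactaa
Tbx21, chr11:97115332-97115581, minus strand: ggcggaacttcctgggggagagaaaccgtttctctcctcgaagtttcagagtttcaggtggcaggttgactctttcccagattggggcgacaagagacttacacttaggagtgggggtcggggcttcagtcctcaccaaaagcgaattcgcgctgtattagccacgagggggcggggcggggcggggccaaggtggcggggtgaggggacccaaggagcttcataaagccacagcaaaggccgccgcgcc
Ifng, chr10:118440796-118441045, plus strand: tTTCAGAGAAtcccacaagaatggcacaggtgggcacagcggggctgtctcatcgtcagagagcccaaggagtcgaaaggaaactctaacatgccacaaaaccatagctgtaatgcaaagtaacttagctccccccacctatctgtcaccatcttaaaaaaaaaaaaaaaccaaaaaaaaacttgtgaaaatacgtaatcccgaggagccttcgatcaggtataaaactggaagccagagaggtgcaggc

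Of 6 motifs searched on both strands from 250 bases before to 50 after the start, matches in the 7 promoters were few. TTCNNNGAA occurred in Ifng and Il12rb2, and in 8.30% of all 32851 promoter windows of that length. AGGTGT, the core of T-box factors such as T-bet and Eomes, occurred in Ifngr2 alone among the 7, and in 13.7% of all windows. TGANTCA (AP-1), TGTGGT (RUNX), CCGGAA (ETS) and CACGTG (E-box) occurred in 0 of the 7, and in 7.81%, 16.8%, 14.9% and 7.15% of all windows. These motifs do not overlap each other in the 7 windows, and a match describes letters only.

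The libraries held between 2723344 and 5111728 counts, the lowest in Flcn KO replicate 4, and the group means of these totals were not distinguishable (two-sided exact permutation p = 0.486, n = 4, where 0.0286 is the smallest possible). Levels are given as CPM, counts scaled by TMM to a common library total. Peaks were tested where counts were high enough (edgeR's filterByExpr), which kept 47859 of all peaks and 39 of the 52 described here. Against the sorted identity, Foxp3 peaks summed to 38.5 CPM in WT and 44.0 in Flcn KO, and the means were also higher in Flcn KO for Il2ra (192 and 219), Ctla4, Ikzf2, Cd3d and Lck. They were lower for Cd4 (43.3 and 37.7), Cd3e (33.5 and 26.4) and Cd5 (156 and 138). The B cell gene Ms4a1 and the myeloid genes Lyz2 and Csf1r had no peak, but other genes of those lists did, among them Blk (25.1 and 34.8), Ebf1 (21.6 and 19.0), Pax5 (19.4 and 16.5), Cd79a (6.61 and 8.47), Spi1 (34.1 and 34.4) and Itgam (10.95 and 7.15). Peaks at 5 genes of natural killer and innate lymphoid cells, which also use the Th1 programme, summed to between 274 and 312 CPM in WT and between 314 and 394 in Flcn KO, so the groups did not overlap. Of their 15 tested peaks, 3 were higher at adjusted p below 0.05 (edgeR), both Klrk1 peaks and 1 near Klrb1c. A further 1, inside Klrb1c, was lower. These are 26.7% of the list, where 2.37% of all tested peaks passed, 1.35% higher and 1.02% lower. By gene, the mean sums were higher in Flcn KO for Klrb1c (223 and 266), Klrk1 (13.6 and 35.7) and Klrd1 (3.58 and 4.84). They were lower for the defining gene Ncr1 (3.77 and 3.37) and for Tyrobp (51.4 and 47.2). Sums for the other marker lists ran from 26.1 to 37.8 CPM in WT and 21.9 to 47.2 in Flcn KO for CD8 T cells, from 55.8 to 87.6 and 71.6 to 92.1 for B cells, from 53.1 to 73.1 and 44.6 to 57.9 for myeloid cells, and from 1418 to 1587 and 1457 to 1647 for Treg and T cells. In sorted populations, fewer cells with an open site and less opening per cell cannot be told apart.

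Across the 39 tested peaks, 2 were called higher in Flcn KO and 0 lower by edgeR's quasi-likelihood test with Benjamini-Hochberg adjustment over all tested peaks (adjusted p below 0.05). Of all tested peaks, 2.37% were called, 1.35% higher and 1.02% lower. The called peaks lay inside Il12rb2 and downstream of Ifng. Both were higher in the group where the summed natural killer markers were higher, though Ncr1 and Tyrobp were not. The part of such cells in these results was not tested. By unadjusted p below 0.05, 9 of the 39 lay higher and 3 lower, where 6.87% and 5.99% of all tested peaks did and 12.9% in both directions together. DESeq2 and limma-voom each also called 2 higher and 0 lower. The median log2 fold change, Flcn KO minus WT, was 0.13 over the 39 and 0.00 over all tested peaks, and 25 of the 39 lay above 0, beside 50.6% of all. The groups did not overlap at 8 of the 39, 6 with Flcn KO above and 2 below, beside 4.03% and 3.56% of all tested peaks. Without Flcn KO replicate 1, 5 of 40 tested peaks were called, all higher, where 3.61% of all tested peaks were called and 1.73% called higher. That library was the least like the others of its group by chi-square per peak. It also had the highest total, which can raise that measure.

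**Figure D1:**
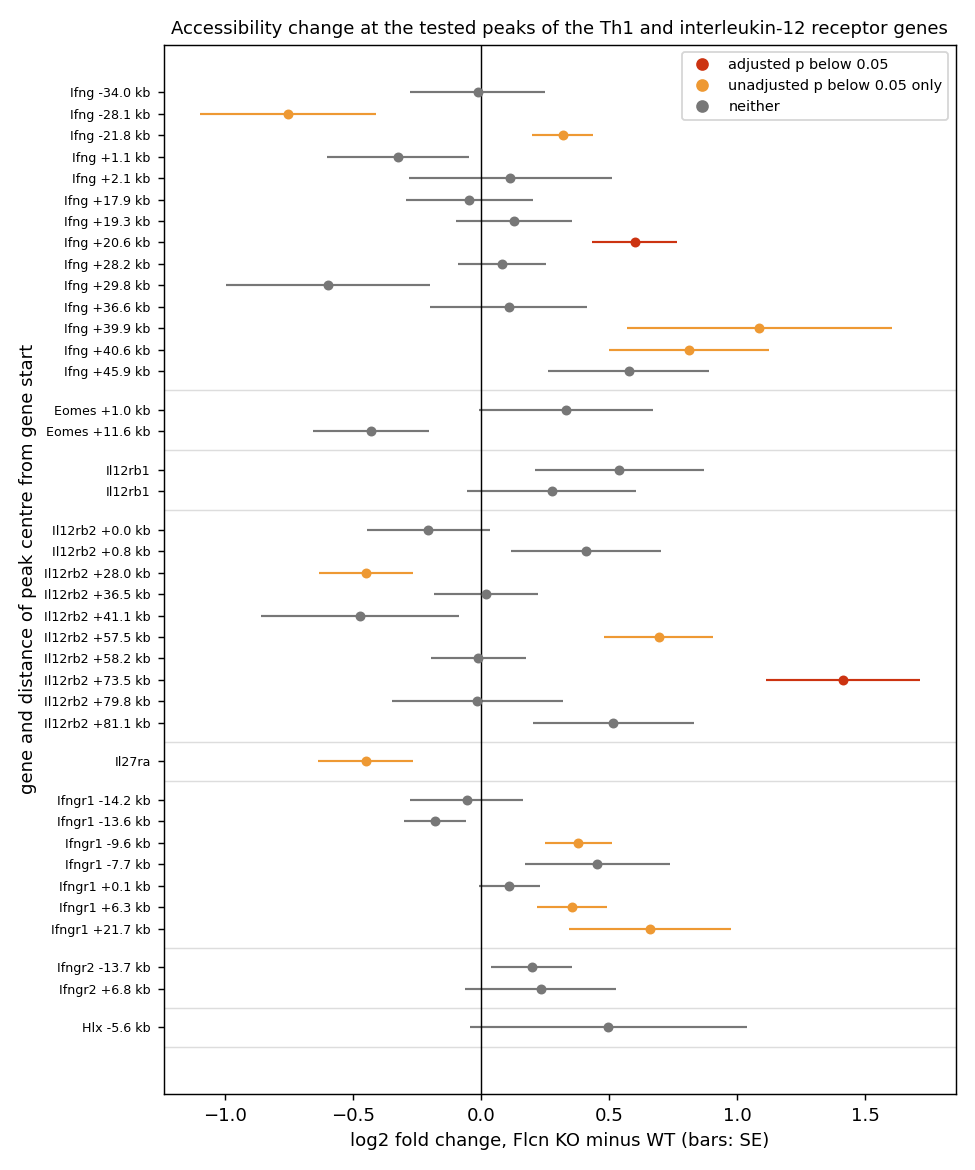
Log2 fold change of accessibility (x axis, Flcn KO minus WT, bars show the SE) at each of the 39 tested peaks, by gene and by the distance of the peak centre from the gene start in kb (y axis; Il12rb1 and Il27ra have no start in the table). Only the Il12rb2 peak at +73.5 kb and the Ifng peak at +20.6 kb passed the adjusted threshold, and Ifng, Il12rb2 and Ifngr1 each have peaks with values on both sides of 0.

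The receptor chain that gives T cells their response to interleukin-12 carried the largest log2 change of the 39 tested peaks. Il12rb2 (chromosome 6, 67285986 to 67376293, minus strand) had 12 peaks, 11 of them inside the gene, and 10 were tested. The peak at 67302484 to 67302861 of chromosome 6, centred 73.5 kb downstream of the start, held 3.32, 3.12, 4.59 and 4.43 CPM in the WT libraries, in order of replicate number as in all such lists here, and 8.99, 10.2, 11.4 and 10.7 in those of Flcn KO. Every Flcn KO library stood above every WT library, the lowest at 8.99 against a highest WT value of 4.59. The mean rose from 3.87 ± 0.750 to 10.3 ± 1.03 CPM (± SD over 4 libraries), which is 2.66-fold (log2 change 1.41 with SE 0.30, adjusted p = 0.00442 by edgeR). The underlying counts were modest, 16, 14, 18 and 18 in WT and 46, 38, 46 and 28 in Flcn KO. The call held in all 16 alternatives in which it was fitted, with adjusted p between 0.00171 and 0.0282. The stricter filter and the halved counts kept this peak through its Flcn KO libraries alone, so those alternatives add no separate support. Annotation used here does not say whether the site is exonic or intronic.

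Another pair of Il12rb2 peaks, 300 bp apart, gave unlike values. The peak at 67318531 to 67318873 of chromosome 6, 57.5 kb from the start, held 10.4, 10.7, 12.7 and 14.3 CPM in WT and 14.9, 21.9, 19.4 and 22.1 in Flcn KO. Its groups did not overlap either, but it missed the threshold (log2 change 0.69 with SE 0.21, adjusted p = 0.0782 by edgeR) unless Flcn KO replicate 1 was left out (0.81, adjusted p = 0.0233). The adjoining peak at 67317839 to 67318230 had a log2 fold change of −0.01 (edgeR adjusted p = 0.989). Whether this pair differ from each other was not tested directly.

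At the most accessible Il12rb2 peak the mean was lower in Flcn KO, without passing the test. It lies at 67347989 to 67348464 of chromosome 6, 28.0 kb from the start, and held 27.0, 35.2, 29.6 and 25.1 CPM in WT and 23.5, 16.0, 17.9 and 29.0 in Flcn KO. Flcn KO replicate 4 reached the WT range while replicates 2 and 3 were low, so the groups overlapped (log2 change −0.45 with SE 0.18, adjusted p = 0.246 by edgeR). The peak over the start, at 67375897 to 67376434 of chromosome 6, which covers all but the outermost bases of the sequence shown above, held 12.2, 9.81, 18.4 and 13.8 CPM in WT and 9.39, 10.2, 13.9 and 13.7 in Flcn KO. Those groups overlapped throughout (log2 change −0.21 with SE 0.24, adjusted p = 0.802 by edgeR). The other 6 tested peaks of the gene had log2 fold changes from −0.47 to 0.52, with adjusted p of 0.532 or more.

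Summed over the gene, Il12rb2 did not pass the test. Gene sums were scaled by TMM on their own, over counts of assigned peaks, so they are not the plain sum of the peak CPM. The sums of marker genes above use the scale of single peaks. All 12 peaks together held 129, 142, 138 and 125 CPM in WT and 125, 129, 156 and 154 in Flcn KO (log2 change 0.08 with SE 0.09, adjusted p = 0.804 by edgeR over 13495 gene sums). The peak at +73.5 kb was then tested against the pooled change of all tested Il12rb2 peaks, in a test run over 37989 peaks of genes with several. It exceeded its gene by 1.32 log2 units (edgeR adjusted p = 0.00855). Of the 37 peaks of these genes in that test, 1 passed above its gene and 0 below, where 1.15% of all peaks passed, 0.558% above and 0.587% below. By unadjusted p below 0.05, 3 of the 37 lay above and 4 below, where 8.22% of all peaks did, 4.32% above and 3.9% below. Without WT replicate 2 the difference was 1.21 and its adjusted p 0.0754.

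**Figure D2:**
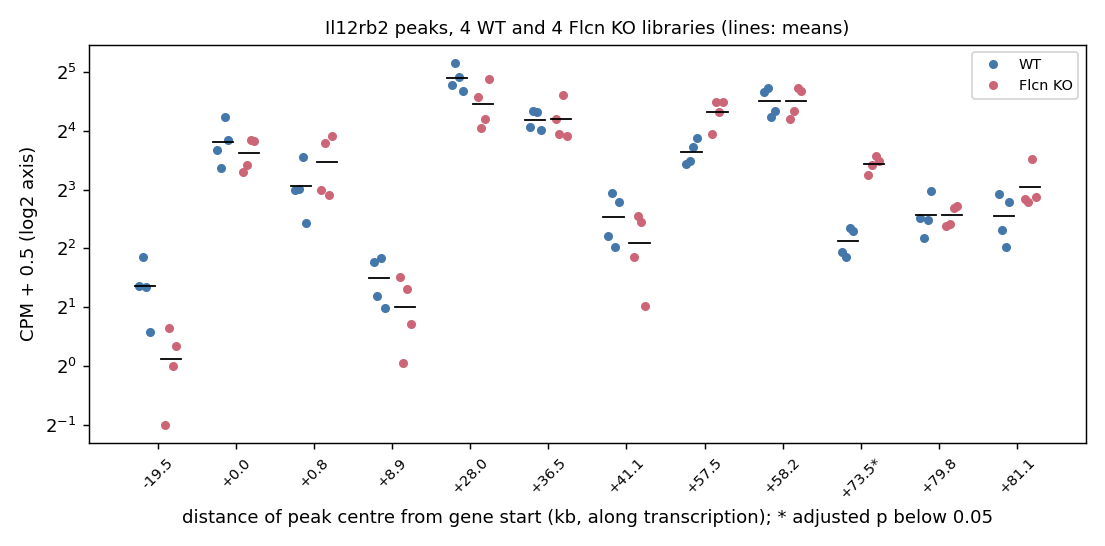
Accessibility of the 12 Il12rb2 peaks (y axis, CPM + 0.5 on a log2 axis) by the distance of the peak centre from the gene start in kb (x axis). Points are libraries, 4 WT and 4 Flcn KO, and lines are means. At +73.5 kb all 4 Flcn KO libraries lie between 8.99 and 11.4 CPM, above the WT libraries at 3.12 to 4.59, while at +28.0 kb the Flcn KO mean is the lower.

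The pattern of the +73.5 kb peak over the 8 libraries was compared with every tested peak on other chromosomes, by the root mean square difference of centred log2 CPM values (pseudocount 0.5). The most alike were a peak 11.4 kb from Lrp11, a peak 0.904 kb from Ctnnb1, the beta-catenin gene, and a peak 61.5 kb from Edil3, in that order, with differences from 0.0887 to 0.160. The median over all such peaks was 0.751. These were picked for likeness to a peak that differs between the groups, so their own difference between groups is no separate result.

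The partner chain Il12rb1, which pairs with Il12rb2 for interleukin-12 and with another chain for interleukin-23, showed no call. It spans 70808360 to 70823542 of chromosome 8 and had 3 peaks, of which 2 were tested. The peak at 70806616 to 70806922 of chromosome 8, 1.44 kb outside the gene, held 8.10, 4.91, 9.18 and 2.95 CPM in WT and 14.9, 7.48, 5.97 and 7.62 in Flcn KO (log2 change 0.54 with SE 0.33, adjusted p = 0.532 by edgeR). The peak over an end of the gene, at 70808242 to 70808559 of chromosome 8, held 6.23, 8.92, 3.57 and 5.41 CPM in WT and 11.7, 5.88, 4.48 and 6.86 in Flcn KO (log2 change 0.28 with SE 0.33, adjusted p = 0.813 by edgeR). Flcn KO replicate 1 was the highest library at both, and without it the second value turned to −0.10 and the summed gene from 0.35 to −0.07. Il27ra, the chain that recognises interleukin-27, had 1 peak, over an end of the gene at 84042212 to 84042804 of chromosome 8. It held 24.1, 25.7, 19.6 and 22.1 CPM in WT and 17.2, 17.1, 14.9 and 17.9 in Flcn KO. All Flcn KO libraries were below all WT libraries, by a modest amount that did not pass (log2 change −0.45 with SE 0.18, adjusted p = 0.247 by edgeR; adjusted p between 0.219 and 0.490 over the alternatives).

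Ifng, the gene of the Th1 effector cytokine, spans 118441046 to 118445894 of chromosome 10 on the plus strand. It had the most member peaks, 16, of which 14 lie outside the gene, and 14 were tested. Distal conserved elements on both sides are known to control this gene in T cells and natural killer cells. The called peak lies downstream at 118461324 to 118461888 of chromosome 10, 20.6 kb from the start and 15.4 kb beyond the gene's end. It held 30.7, 23.2, 25.0 and 17.2 CPM in WT and 37.0, 34.7, 33.8 and 41.1 in Flcn KO. The lowest Flcn KO library lay just above the highest WT library, 33.8 against 30.7. The mean rose from 24.0 ± 5.56 to 36.7 ± 3.27 CPM (± SD over 4 libraries), which is 1.51-fold (log2 change 0.60 with SE 0.17, adjusted p = 0.0424 by edgeR). This call was close to the threshold and was lost when any library but replicate 1 of either group was left out, with adjusted p between 0.0651 and 0.188 and the direction kept. Against the pooled change of the Ifng peaks it did not stand out (0.38 log2 units, edgeR adjusted p = 0.526).

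The strongest Ifng element lay upstream, at 118418837 to 118419598 of chromosome 10, −21.8 kb from the start. It held 97.6, 88.8, 82.1 and 58.5 CPM in WT and 104, 93.0, 112 and 99.1 in Flcn KO. WT replicates 2 to 4 lay under every Flcn KO library, and WT replicate 1 lay within the Flcn KO range (log2 change 0.32 with SE 0.12, adjusted p = 0.186 by edgeR). A nearby peak at 118412785 to 118413178 of chromosome 10, −28.1 kb from the start, held 8.72, 15.6, 8.67 and 11.8 CPM in WT and 6.26, 2.67, 4.48 and 14.5 in Flcn KO. Flcn KO replicates 1 to 3 were below all WT libraries, whereas replicate 4 was within their range (log2 change −0.76 with SE 0.35, adjusted p = 0.341 by edgeR; without that replicate −1.29, adjusted p = 0.0312).

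Far downstream, 2 small peaks 437 bp apart had higher means in Flcn KO and passed the unadjusted threshold only. The peak at 118481523 to 118481840 of chromosome 10, 40.6 kb from the start, held 4.57, 2.90, 6.63 and 5.41 CPM in WT and 7.43, 7.48, 10.2 and 9.14 in Flcn KO, with no overlap (log2 change 0.81 with SE 0.31, adjusted p = 0.204 by edgeR). The peak at 118480886 to 118481085 of chromosome 10 held 10, 11, 6 and 2 counts in WT and 25, 13, 8 and 10 in Flcn KO (log2 change 1.09 with SE 0.52, adjusted p = 0.361 by edgeR). Inside the gene itself the levels were low: the peaks at 118441956 and 118443037 had log2 fold changes of −0.32 and 0.11 and adjusted p of 0.704 and 0.948. No peak overlapped the start. The 9 tested Ifng peaks outside those with a p below 0.05 ranged from −0.60 to 0.58 in log2 fold change, with adjusted p of 0.459 or more.

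**Figure D3:**
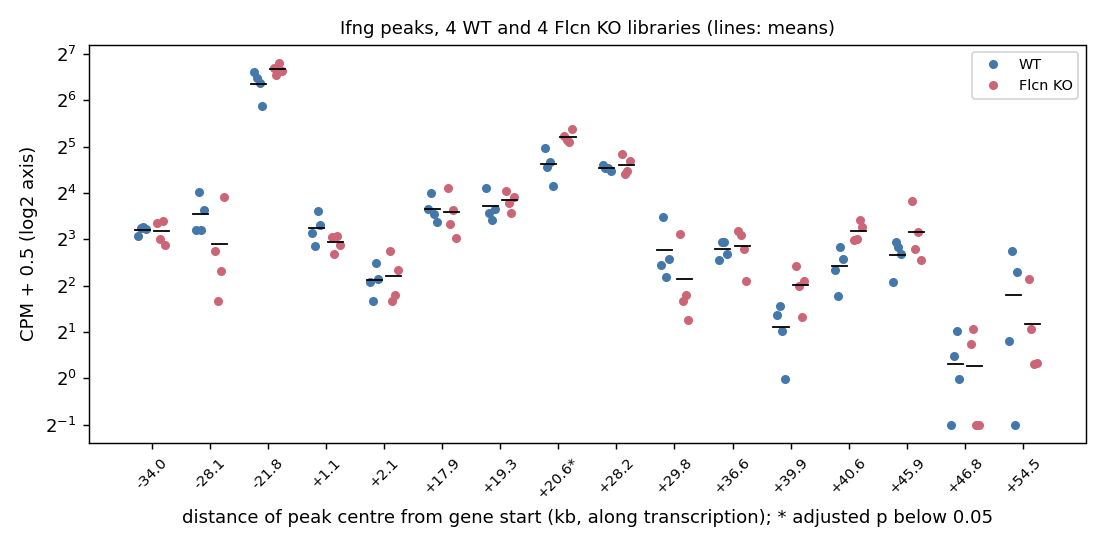
Accessibility of the 16 Ifng peaks (y axis, CPM + 0.5 on a log2 axis) by the distance of the peak centre from the gene start in kb (x axis). Points are libraries, 4 WT and 4 Flcn KO, and lines are means. The upstream element at −21.8 kb is the most accessible, at 58.5 to 112 CPM, and the called peak at +20.6 kb shows Flcn KO libraries at 33.8 to 41.1 CPM above WT at 17.2 to 30.7.

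Among the transcription factors, Tbx21 and Hlx had the lowest summed accessibility of the 9 genes. Tbx21, which encodes T-bet (chromosome 11, 97098007 to 97115331), had 3 peaks, and 0 of them reached the count needed for a test. The peak over its start, at 97115270 to 97115478 of chromosome 11, held 12, 10, 6 and 10 counts in WT and 8, 8, 8 and 2 in Flcn KO. On the scale of the gene sums, the 3 Tbx21 peaks together held 7.61, 8.61, 5.88 and 6.62 CPM in WT and 4.59, 4.44, 6.47 and 5.65 in Flcn KO. These sums overlapped between the groups (log2 change −0.45 with SE 0.32, adjusted p = 0.610 by edgeR). Eomes, the related T-box factor of cytotoxic and natural killer cells, had 5 peaks and 2 tested. The stronger, 11.6 kb from the start at 118489566 to 118490025 of chromosome 9, held 18.3, 12.5, 21.4 and 14.8 CPM in WT and 16.4, 10.2, 10.7 and 11.8 in Flcn KO (log2 change −0.43 with SE 0.23, adjusted p = 0.438 by edgeR). The weaker, at 118479018, lay higher in every Flcn KO library than in any WT library but by 0.33 log2 units only (adjusted p = 0.768); it is named after its values were seen, because the groups did not overlap. Hlx, a homeobox gene that acts with T-bet on Ifng, had 3 peaks and 1 tested. That peak, at 184737918 to 184738216 of chromosome 1, held 9, 12, 2 and 12 counts in WT and 8, 16, 16 and 4 in Flcn KO (log2 change 0.50 with SE 0.54, adjusted p = 0.785 by edgeR). Just upstream of its start the peak at 184732641 held 4, 6, 6 and 4 counts in WT and 21, 12, 1 and 2 in Flcn KO, so 2 Flcn KO libraries were above the WT range and 2 below it.

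Of the interferon-gamma receptor genes, none passed the test. Ifngr1, the ligand-binding chain (chromosome 10, 19591949 to 19610229), had 7 peaks, all tested, and the level at the start was the highest. That peak, at 19591596 to 19592410 of chromosome 10, held 95.5, 80.3, 102 and 97.4 CPM in WT and 85.6, 134, 85.0 and 102 in Flcn KO. The groups overlapped (log2 change 0.11 with SE 0.12, adjusted p = 0.786 by edgeR), and the value turned to −0.05 without Flcn KO replicate 2. Upstream, at 19582196 to 19582603 of chromosome 10 and −9.55 kb from the start, the peak held 39.0, 37.5, 37.7 and 39.6 CPM in WT and 41.8, 54.0, 52.2 and 53.0 in Flcn KO. Its WT libraries lay close together and all Flcn KO libraries were higher, but the test was not passed (log2 change 0.38 with SE 0.13, adjusted p = 0.136 by edgeR). Inside the gene, at 19598016 to 19598490 of chromosome 10, the values were 50.0, 51.3, 42.3 and 42.6 CPM in WT and 42.2, 64.9, 70.1 and 62.5 in Flcn KO. Flcn KO replicate 1 was the lowest library of all here and the other Flcn KO libraries were above WT (log2 change 0.35 with SE 0.14, adjusted p = 0.21 by edgeR). Without that replicate both peaks were called, at 0.46 (edgeR adjusted p = 0.0434) and 0.50 (adjusted p = 0.0148).

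A low Ifngr1 peak downstream, at 19613165 to 19614173 of chromosome 10, held 4.98, 4.24, 11.2 and 5.90 CPM in WT and 6.26, 9.62, 10.4 and 16.0 in Flcn KO, with overlap (log2 change 0.66 with SE 0.32, adjusted p = 0.366 by edgeR). A further peak at 19577980, −13.6 kb from the start, lay lower in every Flcn KO library than in any WT library (log2 fold change −0.18, adjusted p = 0.584); it too is named after its values were seen. Summed over 7 peaks, Ifngr1 held 273, 271, 276 and 266 CPM in WT and 258, 346, 319 and 311 in Flcn KO. Flcn KO replicate 1 lay below WT and the others above (log2 change 0.18 with SE 0.08, adjusted p = 0.342 by edgeR; 0.26 and 0.0395 without that replicate). In the fit without it, 4.13% of all 13577 gene sums were called. Ifngr2, the signalling chain (chromosome 16, 91547059 to 91564007), had 2 peaks, both tested and neither over the start. The stronger, at 91532927 to 91533775 of chromosome 16 and −13.7 kb from the start, held 36.5, 27.4, 28.3 and 24.6 CPM in WT and 38.3, 33.7, 32.6 and 29.0 in Flcn KO (log2 change 0.20 with SE 0.16, adjusted p = 0.676 by edgeR).

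Summed over all its peaks, 0 of the 9 genes passed the test, where 1.83% of all 13495 gene sums were called by edgeR, 1.16% higher and 0.674% lower. By unadjusted p below 0.05, Ifng and Ifngr1 lay higher and Il27ra lower, 3 of 9, where 12.6% of all gene sums passed, 6.46% higher and 6.15% lower. The groups did not overlap for 1 gene, Il27ra, with Flcn KO below. Among all gene sums 3.58% had Flcn KO above without overlap and 3.73% below. For Ifng the sums were 243, 250, 224 and 188 CPM in WT and 299, 230, 268 and 259 in Flcn KO. These groups overlapped (log2 change 0.23 with SE 0.09, adjusted p = 0.260 by edgeR).

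**Figure D4:**
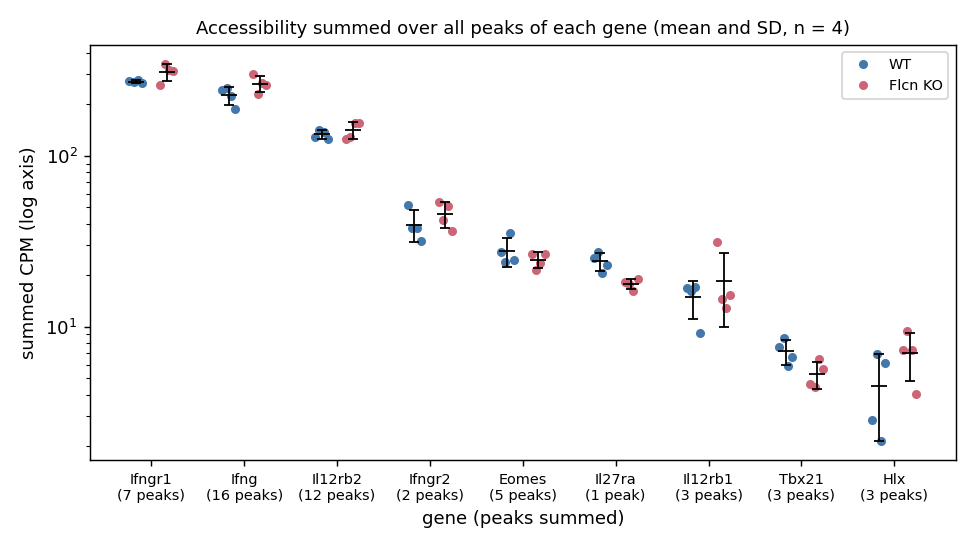
CPM of the counts summed over all peaks of each gene, on the scale of the gene sums (y axis, log axis). The 9 genes are in order of the WT mean (x axis, with the number of peaks summed). Points are libraries, 4 WT and 4 Flcn KO, with the mean and SD. Ifngr1, Ifng and Il12rb2 sum to over 100 CPM and Tbx21 and Hlx to under 10, and the groups overlap in every gene but Il27ra.

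The peak of each gene with the highest mean CPM, put per length, gave this order in WT, in CPM per kb of peak (mean ± SD, n = 4). Ifngr1 was at 115 ± 11.7 and Ifng at 107 ± 21.9, and these overlapped. Il12rb2 followed at 61.4 ± 9.27, clear of both its neighbours. Il27ra at 38.6 ± 4.38, Eomes at 36.4 ± 8.53 and Ifngr2 at 34.4 ± 6.04 overlapped each other, and Il12rb1 at 20.5 ± 9.34 overlapped Ifngr2. Tbx21, with a peak under the test's count limit, at 9.16 ± 3.19 and Hlx at 6.69 ± 3.66 came last. They overlapped each other, and Tbx21 also overlapped Il12rb1. The Tbx21 peaks at 97115270 and 97115885 had fewer CPM but, being shorter, slightly more per kb, 10.4 at each in WT. In Flcn KO, Ifng at 134 ± 10.5 and Ifngr1 at 125 ± 27.9 changed places within their spread, and Il12rb2 came next at 45.4 ± 12.3.

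The 13 untested peaks held at most 28 counts in any library. The farthest peak inside the 50 kb limit was an Ifng peak at 49.5 kb, untested, with 2.98 ± 2.87 CPM in WT and 1.76 ± 1.49 in Flcn KO. The nearest outside it was an Ifng peak at 60.3 kb, with 3.79 ± 1.05 and 3.30 ± 0.691 CPM. Of the peaks beyond the limit whose nearest gene is a member, 0 of the 11 tested for Ifng, 6 for Ifngr1, 4 for Eomes and 1 for Hlx were called by edgeR, with 2 Ifng peaks at an unadjusted p below 0.05. Over all tested peaks these shares were 2.37% and 12.9%.

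Among the other genes of the pathway, Stat4, the transducer of interleukin-12, had 14 tested peaks, of which 2 fell and 0 rose (edgeR). Of all tested peaks, 2.37% were called, 1.35% higher and 1.02% lower. Stat4 was named for holding the lowest adjusted p of its list, so its count of calls beside that share is no separate result. Added on the scale of single peaks, the Stat4 peaks had a mean of 217 CPM in WT and 232 in Flcn KO, so their sum did not fall. A Stat4 peak at 52040518 of chromosome 1, inside the gene, fell from 6.84 ± 0.673 to 1.93 ± 1.56 CPM (± SD over 4 libraries; log2 change −1.75 with SE 0.43, adjusted p = 0.0169 by edgeR). That peak held 29, 34, 26 and 29 counts in WT and 14, 14, 2 and 2 in Flcn KO. It was kept for the test through its WT libraries, where it is high. Another inside Stat4, at 52034947, fell from 11.7 ± 4.05 to 5.75 ± 0.857 CPM (−1.03, adjusted p = 0.0422). The groups did not overlap at either peak. Both calls were lost on leaving out WT replicate 2, and likewise Flcn KO replicate 3 (adjusted p between 0.0683 and 0.277), and each also on leaving out some other library. The call at 52034947 was lost in limma-voom as well (adjusted p = 0.0987).

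Among 80 tested peaks of Th1 partner factors and targets, 0 rose and 1 fell by edgeR, with 7 higher and 4 lower at an unadjusted p below 0.05. These are 1.25% called and 13.8% at the unadjusted threshold, near the 2.37% and 12.9% over the whole table. Neither DESeq2 nor limma-voom called any higher, whereas 3 were called higher without Flcn KO replicate 1 and 1 without WT replicate 1. In those fits 3.61% and 1.66% of all tested peaks were called in either direction. The peak called lower with all libraries lies 40.3 kb from Xcl1, a chemokine gene. It fell from 11.2 ± 5.02 to 4.74 ± 0.271 CPM (log2 change −1.24 with SE 0.32, adjusted p = 0.0221 by edgeR). Its groups overlapped. The call was lost in limma-voom and on leaving out any library but WT replicates 3 and 4 and Flcn KO replicate 1 (adjusted p up to 0.145). Among 56 peaks of the opposing Th2, Th17 and follicular helper genes, 0 rose and 0 fell by edgeR, DESeq2 or limma-voom, with 5 higher and 7 lower at an unadjusted p below 0.05, or 21.4% of the list. Without Flcn KO replicate 1, 2 were called higher and 1 lower, and with replicate number as a block 1 was called lower. Over all tested peaks these fits called 3.61% and 2.87%. Among 59 peaks of genes near the members, 1 rose and 1 fell (3.39% called), and 13.6% passed the unadjusted threshold. A peak 22.3 kb from Il10rb rose from 14.6 ± 5.21 to 26.4 ± 5.05 CPM (log2 change 0.85 with SE 0.21, adjusted p = 0.0183 by edgeR). A peak inside Il20ra fell from 10.5 ± 2.61 to 4.60 ± 1.58 CPM (−1.14, SE 0.30, adjusted p = 0.0310). Both calls were lost on leaving out WT replicate 2, and likewise Flcn KO replicate 3 (adjusted p between 0.0667 and 0.132), and each also on leaving out some other library. The Il20ra call was lost in limma-voom as well (adjusted p = 0.0600). The median log2 changes of these 3 lists were −0.06, 0.03 and 0.05, beside 0.00 over all tested peaks.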

How the data were processed

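The values are raw read counts in 8 libraries, as deposited in a single table whose rows are mm10 peaks common to all libraries. Peak starts, counted from 0 there, were shifted to count from 1. The submitters' processing notes list bedtools 2.25.0, BWA 0.7.16, MACS2 2.1.1, Picard 2.9.4, SAMtools 1.9 and Trimmomatic 0.36. What each was used for, how duplicates were handled, and whether reads were shifted or libraries pooled for peak calling is not given in the sources used here. Totals ranged from 2723344 to 5111728. Even numbers made up 88.7% to 92.7% of the values in a library, which fits counting of both ends of a pair, so fragments are fewer than counts. Chi-square per peak between libraries of a group was 2.18 to 3.56, and no pair was a copy.

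Peaks were assigned to the nearest of 21883 RefSeq protein-coding gene spans (GRCm38.p6, the assembly behind mm10). Counts were filtered (filterByExpr, minimum count 10), scaled by TMM and tested in R 4.3.3 with the quasi-likelihood F test of edgeR 4.0.16 (robust option) on genotype alone, on all peaks, on sums per gene, and for a peak against all tested peaks of its gene (diffSpliceDGE), each adjusted by Benjamini-Hochberg over all features. SE values derive from the F statistic. Alternatives used DESeq2 1.42.0 and limma 3.58.1, other scalings, filters and designs, halved counts, and the leaving out of each library. The methods were also run on simulated counts. Those were drawn without the excess of even numbers seen here, so they do not show how the methods perform on such counts. Values per library are given for peaks with an unadjusted p below 0.05, the most accessible tested peak of a gene, and peaks at a start or, with no start known, a gene end; list genes are named by lowest adjusted p, up to 4 a list. The members and lists were chosen with earlier results of these data known. A genome sequence was not used here, so sequences of peaks are not shown. Some results of the signal transduction and marker lists are not reported here.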

Additional observations from a re-analysis of the deposited data

Results flagged for a closer look

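In 62 groups of 4 libraries (the peaks given library by library, the gene sums and the total counts), 3 had a library far from the other 3, by a gap to its neighbour, relative to the group's range, above Dixon's critical value. Chance flags about 1 in 20 such groups. At the Ifngr1 peak starting at 19582196, Flcn KO replicate 1 held 41.8 CPM beside 52.2 to 54.0 in the others. In the summed Il12rb1 peaks, WT replicate 4 held 9.17 CPM beside 16.3 to 17.1, and Flcn KO replicate 1 held 31.3 CPM beside 12.9 to 15.3.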

How the results depend on the processing

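The count of called peaks, 2 higher and 0 lower, was the same under the 8 alternatives of scaling, filter, test, replicate block and halved counts, with genes assigned within 20 kb (30 tested peaks) and with every peak within 50 kb of a member counted (71 tested). Under the stricter filter and the halved counts, the called Il12rb2 peak was kept through its Flcn KO libraries alone. Leaving out 1 library gave 1 to 5 higher and 0 to 1 lower, the single lower call being the Ifng peak at −28.1 kb. The share of all tested peaks called moved too, from 1.34% (without WT replicate 2) to 3.61% (without Flcn KO replicate 1). Leave-one-out counts of gene sums called higher were 0 to 1, and of peaks called against their gene 0 to 1 higher and 0 to 1 lower. The 1 gene sum was Ifngr1 without Flcn KO replicate 1. There 4.13% of all 13577 gene sums were called, against 1.83% with all libraries. Of 35 single log2 changes, 32 kept their sign in all alternatives that gave a value. The 3 exceptions came from leaving out a library: the Ifngr1 start peak ranged from −0.048 (without Flcn KO replicate 2) to 0.19, the Il12rb1 peak at 70808242 from −0.10 to 0.52 and the Il12rb1 sum from −0.068 to 0.49, the lowest of both without Flcn KO replicate 1. The cause was not tested. Deviations of same-numbered libraries correlated at −0.05 to 0.08, within the −0.15 to 0.17 of other-numbered libraries. Correlations this weak cannot decide whether the numbers pair the samples. With the replicate block, 1375 peaks were called in all in place of 1133, and 2 of these genes' peaks. The 13 peaks with too few counts for the test include all 3 at Tbx21; with no filter all 52 were tested and 2 were called. Whether their low counts reflect depth was not tested.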
